A study of Caenorhabditis elegans with 2 samples.

Results

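The regions described here are the calls of tagged F10B5.3 that fell in introns of autosomal protein-coding genes, away from annotated promoters. They were taken from chromatin immunoprecipitation followed by sequencing (ChIP-seq) of whole Caenorhabditis elegans hermaphrodites. A call is an interval that the authors' peak caller reported on the pooled reads of both replicates, and its summit is the position of highest enrichment within it. A call was included if its summit lay on an autosome, inside a protein-coding gene and in no annotated exon. The summit also had to lie more than 1000 bp from every transcription start site (TSS) of a protein-coding transcript and more than 200 bp from every non-coding RNA gene. Of the 30000 calls in the pooled list, 3993 met the rule, which is 13.3% of all calls and 16.2% of the 24645 autosomal calls. Signal was not used to choose them. The pooled list holds exactly 30000 calls, and whether the authors set that number as a limit was not stated; such a limit would set the lowest signal and every share of calls.

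All worms were of strain OP529, which carries the unc-119 allele tm4063 on its chromosome and the integrated transgene wgIs529, and no wild-type or untagged group was analysed here. Per the labels, the line stably expresses F10B5.3, also named btbz-2 and annotated as a BTB domain-containing protein, with GFP and FLAG at its C-terminus. L4 larvae were collected 48 hours after synchronization as starved L1 larvae and the protein was recovered with an antibody against GFP. The 2 biological replicates formed 1 group, so conditions were not compared and no p-value is given. Every share below has a 95% Wilson interval where one is printed, and these intervals cover counting error over calls only, not the spread between cultures. For a count of 0 the share said to be allowed is 3 divided by the number of calls, which is not the Wilson limit. The promoter, copy number and cells of expression of the transgene are not given in the sources used here, and a whole-worm signal cannot be assigned to a tissue.

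Introns are removed from transcripts by splicing, and in C. elegans most are short, while a minority of long ones are known to hold enhancers, internal promoters and non-coding RNA genes. Many C. elegans messages are trans-spliced to a leader RNA, so an annotated 5′ end can lie downstream of the site where transcription begins. A BTB domain is a protein interaction domain found in many zinc finger transcription factors and in adaptors of ubiquitin ligases. The authors' irreproducible discovery rate (IDR) analysis kept 862 peaks as repeatable between the lists it compared, in a set labelled optimal. A place in this set was not read as a call in both replicates. These peaks were the 862 pooled calls of highest signal, and the lowest of them had a signal of 86.5. The scale of the signal value is not stated, so it served only to rank and describe calls within a list. The 28 intron calls in the IDR set are called IDR intron calls below.

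The sequences around the summits of the 8 highest intron calls on chromosomes II to V are shown because the base composition and short words found there differ from those of the weaker intron calls. Each is the plus strand of ce11, 101 bp centred on the summit and read from the RefSeq genome of the same assembly. Capitals mark 5 words on either strand, whose counts follow further on: the alternating word AGAGAG, its close relatives that read AAGAGA and, one base along, AGAGAA, and besides these the word CGTCTC and lastly the word that reads ACGCAG. Runs of capitals can hold overlapping words.
pqn-41 (higher call), III:1925310-1925410: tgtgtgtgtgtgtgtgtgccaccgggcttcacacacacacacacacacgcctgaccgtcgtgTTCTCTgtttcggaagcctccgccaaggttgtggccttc
zfp-1, III:8795781-8795881: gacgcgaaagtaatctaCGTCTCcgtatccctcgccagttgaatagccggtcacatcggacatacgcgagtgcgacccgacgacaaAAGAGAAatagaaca
lips-10, II:8441664-8441764: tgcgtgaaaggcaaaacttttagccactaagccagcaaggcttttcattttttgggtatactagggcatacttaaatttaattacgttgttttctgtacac
Y111B2A.12, III:12612592-12612692: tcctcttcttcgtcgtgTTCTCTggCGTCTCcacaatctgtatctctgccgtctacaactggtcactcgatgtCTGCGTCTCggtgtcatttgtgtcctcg
pqn-41 (second call), III:1921303-1921403: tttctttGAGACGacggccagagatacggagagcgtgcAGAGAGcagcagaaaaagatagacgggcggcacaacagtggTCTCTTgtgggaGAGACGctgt
lag-1, IV:6097206-6097306: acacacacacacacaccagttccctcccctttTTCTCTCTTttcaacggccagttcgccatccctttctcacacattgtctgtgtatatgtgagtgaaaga
spop-1, III:10096696-10096796: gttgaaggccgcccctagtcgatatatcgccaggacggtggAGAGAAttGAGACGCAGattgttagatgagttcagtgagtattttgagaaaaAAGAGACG
cnp-2, II:12766766-12766866: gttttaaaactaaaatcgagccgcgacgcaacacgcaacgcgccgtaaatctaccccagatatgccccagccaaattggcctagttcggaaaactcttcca

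Intron calls were mostly weak. Their signal ran from 18.4 to 222, with a median of 26.0 and quartiles of 21.5 and 33.3, against a median of 27.5 over all autosomal calls. The median intron call stood at the 43.1 percentile of the pooled list, at 45.2 in the replicate 1 list and at 43.6 in the replicate 2 list. A signal of at least 50 was reached by 240 intron calls (6.01%), against 10.3% of autosomal calls, and a signal of at least 100 by 14 (0.351%), against 1.84%. The plot of signal by position class shows the intron and exon curves lowest at a signal of 50 and above. At a signal of 29.8 the exon curve still lay at the intergenic one, with 39.2% and 39.0%.

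**Figure D1:**
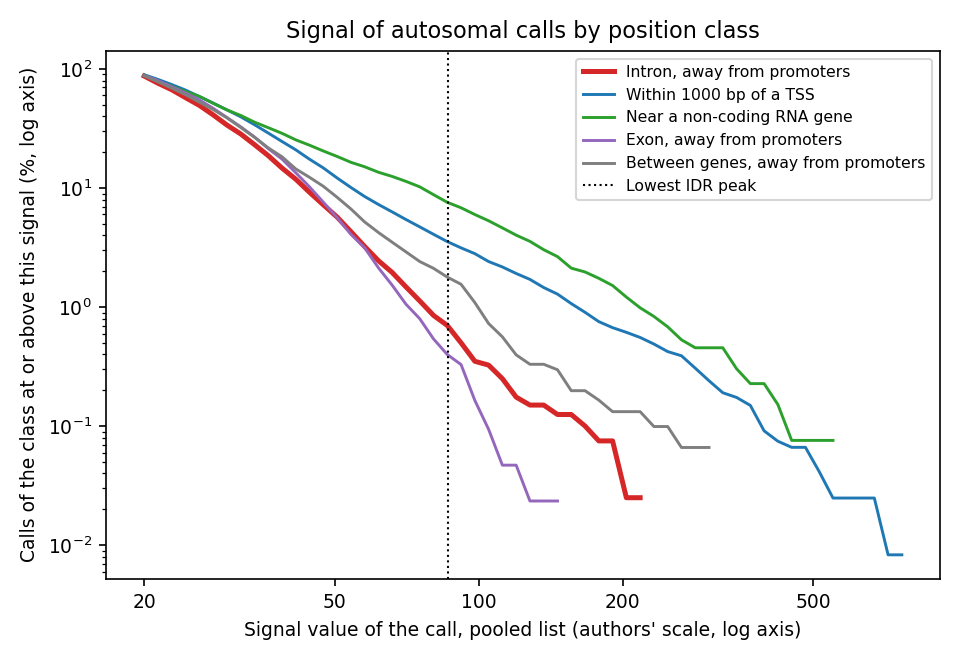
Share of the autosomal calls of each position class (vertical axis, percent, log axis) with a pooled signal at or above the value on the horizontal axis (authors' scale, log axis); the dotted line is the lowest IDR peak, 86.5. The intron curve ends at 222, below the highest promoter call, 769, and above the highest exon call, 147.

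IDR membership was rarer among intron calls than over the whole list. The 28 IDR intron calls were 0.701% of the 3993 (0.486 to 1.01%), whereas IDR peaks were 2.87% of all pooled calls and 2.53% of autosomal calls. Within 1000 bp of a TSS the share was 3.53% (3.22 to 3.88%, 426 of 12056 calls). Calls away from TSSs but within 200 bp of a non-coding RNA gene had the highest autosomal share, 7.59% (6.28 to 9.14%, 100 of 1318). Calls between protein-coding genes stood at 1.75% (1.34 to 2.29%, 53 of 3023) and calls in exons at 0.400% (0.250 to 0.639%, 17 of 4255). The intervals of the intron and exon calls overlapped, and that of the intron calls lay below those of the other 3 autosomal classes. When calls at any distance outside a non-coding RNA gene were counted, 53 intron calls were IDR peaks, or 1.23%.

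In each replicate taken alone the intron share was also below the promoter, non-coding RNA and intergenic shares. In the replicate 1 list 862 of 22211 calls, or 3.88%, form the 862 highest, and 35 of the 2701 calls that met the intron rule were among them (1.30%, 0.933 to 1.80%). The replicate 2 list gave 22 of 3563 intron calls (0.617%, 0.408 to 0.933%) against 3.12% over its 27642 calls. Promoter calls reached 4.55% in replicate 1 and 3.82% in replicate 2. Intergenic calls had 2.08% (1.57 to 2.77%) in replicate 1, an interval that overlaps that of the intron calls, and 1.93% (1.48 to 2.51%) in replicate 2, which does not. In replicate 1 the exon share was 0.714% (0.472 to 1.08%), and in replicate 2 it was 0.680% (0.468 to 0.987%), so the order of introns and exons differed between the replicates.

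**Figure D2:**
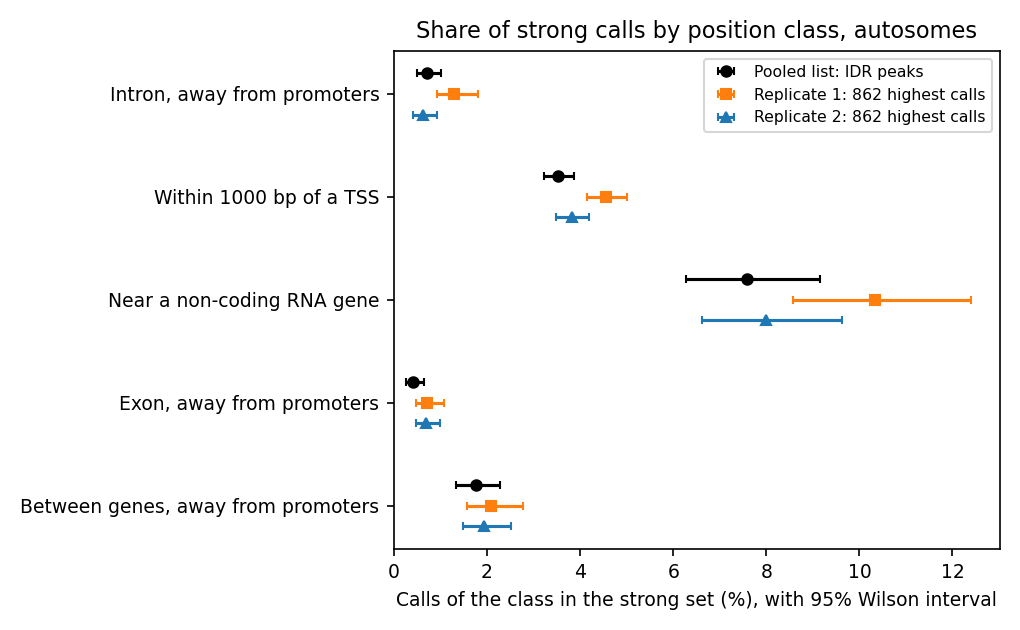
Percent of the calls of each autosomal position class that were IDR peaks in the pooled list (circles) or among the 862 highest calls of replicate 1 (squares) or replicate 2 (triangles), with 95% Wilson intervals over calls. Intron calls sit at 0.701%, 1.30% and 0.617%, beside the exon calls and below the other classes.

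Most intron calls were not found at the same place in both replicates. A replicate 1 summit lay within 100 bp of 1528 intron summits (38.3%), and a replicate 2 summit within 100 bp of 2078 (52.0%). Both replicates had one for 637 (16.0%, 14.9 to 17.1%), and neither had one for 1024 (25.6%). The share found in both depends on the matching rule, and was 9.12% with summits within 50 bp and 37.4% with overlapping intervals. With summits within 100 bp, both replicates had one for 23.2% of promoter calls and 25.7% of calls near non-coding RNA genes. For intergenic calls the share was 19.0%, and for exon calls 17.2%. Most calls of those classes were thus also not found in both, although the intron share was the lowest. At least 1 replicate had a summit within 100 bp for 74.4% of intron calls, against 76.4 to 80.1% in those classes. Of the 28 IDR intron calls, 28 had a replicate 1 summit and 27 a replicate 2 summit within that distance. The IDR set was drawn from these lists, so this count is no independent check. For 20 of the 28 the matching replicate 1 call was among that list's 862 highest, and for 16 the matching replicate 2 call was. Over the 637 calls found in both, the log10 signals of the replicates had a Pearson r of 0.509 and the signals a Spearman rank correlation of 0.330, as a description across calls that share libraries and mapping.

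**Figure D3:**
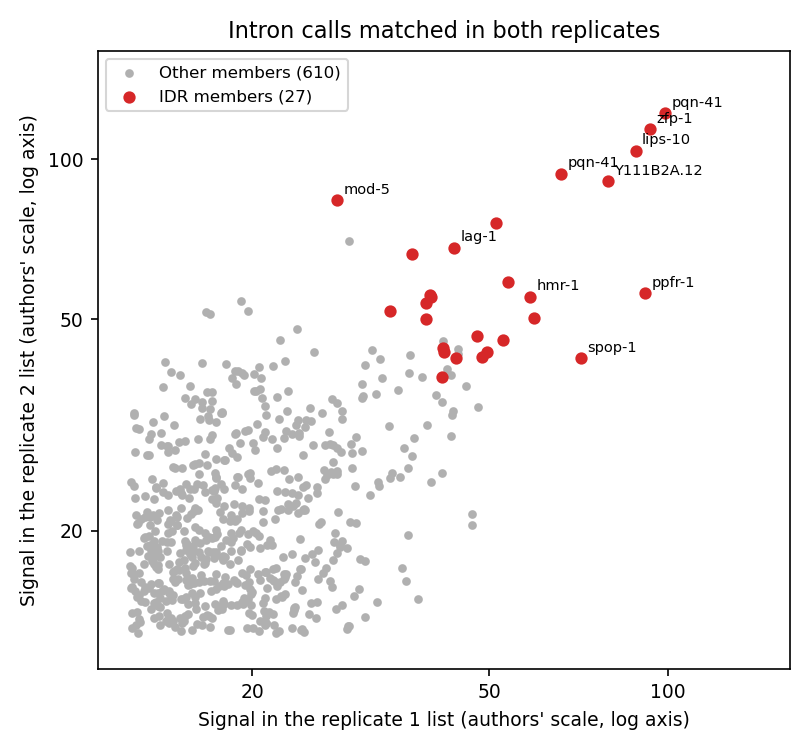
Replicate 1 signal (horizontal) and replicate 2 signal (vertical), both on the authors' scale with log axes, for the 637 intron calls with a summit within 100 bp in both lists; red points are the 27 IDR intron calls among them. The mod-5 call lies far from the others, with 27.8 in replicate 1 and 83.7 in replicate 2.

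The strongest intron calls lay in genes for a polyglutamine protein and a chromatin protein. The highest call of all, at III:1925265-1925509, had its summit at 1925360 in the fourteenth intron of pqn-41, a glutamine-rich protein required for the non-apoptotic death of the linker cell. Its signal was 222 in the pool, 98.9 in replicate 1 and 122 in replicate 2, and it ranked 140 in the pooled list. A second IDR call in the same 10372 bp intron had its summit at 1921353, 4007 bp away, with 157 in the pool, 66.0 in replicate 1 and 93.9 in replicate 2. It was the fifth highest intron call, and pqn-41 was the only gene with more than 1 IDR intron call. The call in zfp-1, the homolog of the mammalian chromatin protein AF10, had its summit at III:8795831 in intron 4 of 13. Its signal was 199 in the pool, 93.2 in replicate 1 and 114 in replicate 2.

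pqn-41 held 6 intron calls in all, and its long intron contained 5 of them. Measured from the 5′ end of the gene, their summits lay at 15395, 17737, 19402, 20025 and 20686 bp, with pooled signals of 157, 53.3, 222, 22.1 and 74.4. The sixth, at 27174 bp, had 23.7. Annotated TSSs of pqn-41 lay at 0, 9, 13613, 21713 and 21717 bp, so this intron of the longest transcript holds internal starts, and the 5 calls lie between those at 13613 and 21713 bp. The IDR summits were 1782 and 2311 bp from the nearest of these. No call within 1000 bp of a pqn-41 TSS was an IDR peak, and the 3 such calls inside the gene had signals of 30.8, 22.8 and 21.4.

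**Figure D4:**
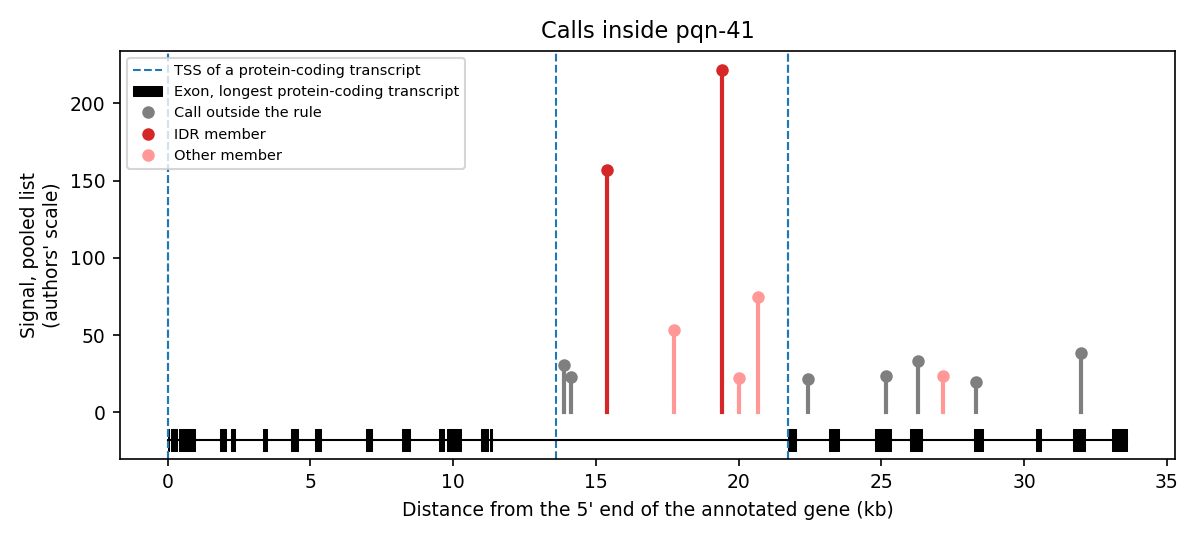
Pooled signal (vertical axis, authors' scale) of every call inside pqn-41 against the distance from the 5′ end of the gene in kb; black boxes below are exons of the longest protein-coding transcript and dashed lines are annotated TSSs. The red lines, the IDR calls of signal 157 and 222, stand between the starts at 13613 and 21713 bp.

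lips-10, a gene related to lipases, held the third highest intron call, in a very different setting. Its summit at II:8441714 had a signal of 192 in the pool, 88.1 in replicate 1 and 104 in replicate 2. The intron is the last of 3 and only 198 bp long, and the 179 bp call lay wholly inside it. The neighbouring gene eif-3.G, a subunit of a translation initiation factor, has its TSS 1053 bp away, so the call stood just inside the distance limit. The calls in pqn-41 (245 bp), zfp-1 (252 bp) and lips-10 were the only intron calls narrower than 450 bp.

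The next calls were in genes for a WD-repeat protein and a phosphatase subunit. Y111B2A.12, annotated with WD repeats, had its summit at III:12612642 in a 7076 bp intron, with 172 in the pool, 79.1 in replicate 1 and 90.8 in replicate 2. ppfr-1, a regulatory subunit of protein phosphatase 4, had its summit at I:9381379 in a 10404 bp intron and 8205 bp from the nearest TSS, the largest such distance among the 28. Its signal was 142 in the pool, 91.6 in replicate 1 and 56.1 in replicate 2. These 2 replicate values rank 154 and 704 in their lists, so ppfr-1 was nearer the top of the replicate 1 list.

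The next 3 calls lay in genes for a cadherin, a Notch effector and a BTB protein. hmr-1, the classical cadherin of epithelial junctions, had its summit at I:11095924 in intron 21 of 30, an intron of 18310 bp, with 120 in the pool, 58.6 in replicate 1 and 55.2 in replicate 2. The nearest hmr-1 TSS was 1398 bp from this summit and the 5′ splice site 16718 bp, so that start lies downstream of the splice site. lag-1, the DNA-binding effector of Notch signalling, had its summit at IV:6097256 in its 5917 bp first intron, with 118, 43.7 and 68.2. spop-1, whose mammalian homolog is a BTB adaptor of a ubiquitin ligase, had its summit at III:10096746 in its 4847 bp first intron, with 115, 71.3 and 42.2. The lag-1 call ranked 766 in the replicate 1 list and 480 in the replicate 2 list, and the spop-1 call 249 and 1374.

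The next 4 hosts encode a calcineurin-binding protein, a neurotransmitter transporter, a chemoreceptor and an unnamed product. cnp-2, annotated as calcineurin-interacting, had a summit at II:12766816 in a 322 bp intron, with 114 in the pool, 51.4 in replicate 1 and 76.0 in replicate 2. mod-5, the serotonin reuptake transporter, had a summit at I:3038076 in the last of its 11 introns, 3146 bp long, with 111, 27.8 and 83.7. Its replicate 1 call ranked 2737 and its replicate 2 call 302, the widest gap in rank among the 27 calls found in both. srt-52, of the class T serpentine receptors, had a summit at V:53493 in a 3934 bp intron, with 110, 53.9 and 58.7. Y67D8A.2 had a summit at IV:3234635 in a 3910 bp intron, with 105, 59.4 and 50.3.

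The last call above 100 needs a caution about position. aat-1, an amino acid transporter gene, had its summit at IV:9599559, 2 bp from the edge of a 65 bp intron, with 102 in the pool, 37.1 in replicate 1 and 66.2 in replicate 2. Exons covered 74.9% of the call, so a small shift of the summit would have put it in an exon. Over all intron calls, 2152 intervals (53.9%) overlapped an exon and 1005 summits lay in an intron shorter than the usual 450 bp call. Among the IDR intron calls 6 intervals overlapped an exon.

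The other IDR intron calls had signals from 96.7 down to 86.7, and some of their hosts encode transcription factors or signalling proteins. zip-7, a bZIP protein, had 93.5, nhr-34, a nuclear hormone receptor, 92.7, and ces-1, a Snail-family factor that sets the death of particular neurons, 88.9. daf-5, the Ski homolog of the dauer TGF-beta pathway, had 90.7, with its summit in a 14446 bp first intron, 11598 bp from the 5′ splice site. The nearest daf-5 TSS was 2848 bp from the summit and so downstream of that splice site. mpk-1, the ERK kinase of Ras signalling, had 90.1 in an 8247 bp first intron. unc-43, the calcium and calmodulin-dependent kinase II of neurons and muscle, had 86.7 in an 8328 bp intron, just inside the IDR set. gei-4, annotated with a bZIP domain, had 93.1 in a 6235 bp first intron. The nearest TSSs of unc-43 and gei-4 were 1727 and 1427 bp from the summits, and the 5′ splice sites 6590 and 4802 bp. These genes too therefore have starts downstream of those splice sites.

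The others encode proteins known mainly from their annotated domains. K01F9.2, uncharacterized, had 96.7, and C36E8.4, with an SH3 domain, had 95.7 in a 376 bp intron. C36E8.4 was the only IDR intron call without a replicate 2 summit within 100 bp, while its replicate 1 signal was 62.4. F28F8.7, with an ELM2 domain, had 93.1, Y105C5A.15, with a BED-type domain, 91.7, and Y53G8AM.8, with a CENPB-type domain, 90.5. Y57G11C.22, annotated as a PRKCA-binding protein, had 89.97, and F07C6.4, with a FERM domain, 87.8.

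Some of these sites were near features that the rule does not count as promoters. The Y57G11C.22, K01F9.2 and ppfr-1 summits were 316, 327 and 338 bp from a non-coding RNA gene, just past the 200 bp limit. With a limit of 1000 bp for these genes, 3575 intron calls were left, 20 of them in the IDR set (0.559%). The F28F8.7 summit was 198 bp from the start of a transcript that is not labelled protein-coding, lay in no intron of a protein-coding transcript, and was inside a pseudogene. zip-7 was 442 bp from the start of such a transcript. In all, 13 intron calls were within 1000 bp of such a start, 15 within 200 bp of a pseudogene, and 14 in no intron of a protein-coding transcript. The label of the class therefore holds for nearly all of the 3993 calls by annotation, while unannotated starts were not tested.

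The 5 intron calls just below the IDR limit had signals from 85.9 to 81.6 and lay in introns of 3019, 1824, 632, 811 and 1052 bp, and the 5 just above it lay in introns of 8247, 9612, 763, 10215 and 8328 bp. fkh-7, a forkhead factor, had 85.9, epg-9, an autophagy gene, 84.8, lec-1, a galectin, 82.1, mec-19, a gene of touch neurons, 81.6, and max-2, a PAK kinase of axon guidance, 81.6. In the replicates fkh-7 had 44.4 and 43.1, close to the values of the lowest IDR intron call, that of unc-43, with 42.0 and 43.4. lec-1 had 29.1 in replicate 1 and 70.1 in replicate 2, and mec-19 had 41.5 in replicate 1 and no replicate 2 summit within 100 bp. The authors' −log10 q-value was at its ceiling of 3.24 for all IDR calls and 2.76 for fkh-7.

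Strong intron calls lay mostly in long introns, while calls of any signal were about as dense in long introns as in short ones. Positions that met every criterion of the rule, called eligible bases here, made up 15133685 bp or 18.3% of the autosomes. Intron calls numbered 26.4 per 100 kb of eligible sequence, near the 29.9 per 100 kb of all calls over the autosomes. IDR intron calls numbered 1.85 per Mb, against 7.56 per Mb for IDR peaks over the autosomes. The median intron with a call was 1001 bp long, against 1160 bp for the intron holding the median eligible base. The median was 4847 bp for the IDR intron calls and 992 bp for the others.

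Of the 27 IDR intron calls with an intron of a protein-coding transcript, 21 lay in introns of at least 2000 bp. These introns had 1313 calls, of which the 21 are 1.60% (1.05 to 2.43%), and shorter introns had 6 of 2666, or 0.225% (0.103 to 0.490%). Per Mb of eligible intron this was 4.14 against 0.600. The density of all calls was similar in both groups, at 25.9 per 100 kb in the long introns and 26.6 in the shorter ones. The replicate 1 list gave 24 of 908 (2.64%) for long introns and 11 of 1782 (0.617%) for shorter ones. In the replicate 2 list the counts were 15 of 1150 (1.30%) and 7 of 2398 (0.292%). The intervals of the long and the shorter introns did not overlap in any of the 3 lists. The classes of length were joined at 2000 bp after the counts by length were seen. Intron length is that of the longest transcript, and how many of the long introns hold starts of other transcripts, as in pqn-41, was not counted.

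In the pooled list the density of all calls by finer classes was highest at both ends. It fell from 33.3 per 100 kb in introns under 100 bp to 20.3 in introns of 1000 to 1999 bp, then rose to 32.6 in introns of at least 10000 bp. In replicate 1 it was highest at 24.2 in introns of at least 10000 bp, then 23.0 at 100 to 449 bp, with 20.2 under 100 bp. IDR intron calls were 7 of 271 in the longest class (2.58%, 1.26 to 5.23%), or 8.43 per Mb. They were 0 of 679 in introns of 1000 to 1999 bp, which allows a share of up to 0.442%, or up to 0.563% by the Wilson interval. Replicate 2 also gave 8.43 per Mb in the longest class, and replicate 1 gave 6.02, below its 6.47 in introns of 5000 to 9999 bp. Signal itself did not track length across the whole class, with a Spearman rank correlation of 0.033 over 3979 calls that share libraries.

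**Figure D5:**
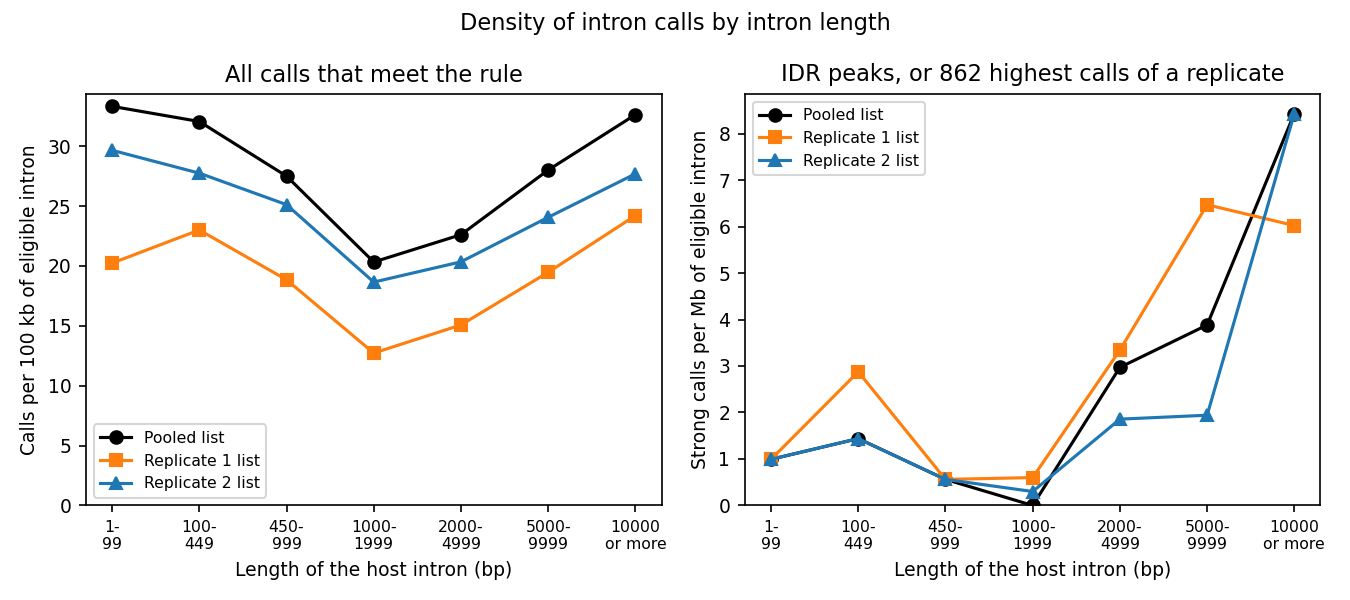
Calls that met the intron rule per 100 kb of eligible intron (left) and strong calls per Mb of eligible intron (right) by length of the host intron in bp, for the pooled list (circles), replicate 1 (squares) and replicate 2 (triangles). In introns of at least 10000 bp the pooled list reached 32.6 calls per 100 kb and 8.43 strong calls per Mb.

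The number of calls followed the eligible bases across intron ranks. The first intron held 435 of 3979 (10.9%), against 11.3% of eligible bases, and densities by rank ran only from 24.2 to 27.8 per 100 kb. Of the 27 IDR intron calls 6 (22.2%, 10.6 to 40.8%) were in a first intron, or 3.50 per Mb, against 0.978 per Mb for introns 6 to 10 and 2.80 per Mb for introns 11 and above. These are counts of 6, 4 and 5 calls. Within their introns, 1149 calls lay in the 5′ part of 3 equal parts, 1390 in the middle and 1440 in the 3′ part, and for the IDR calls the counts were 10, 9 and 8. The median distance to the nearest splice site was 203 bp for all and 1433 bp for the IDR intron calls.

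Distance from promoters gave only a shallow gradient. Density fell from 28.9 per 100 kb at 1001 to 1500 bp from a TSS to 20.4 beyond 5000 bp. The IDR counts in the same classes were 8 of 1089 (0.735%) and 2 of 386 (0.518%), against 0.701% over all intron calls. The highest IDR share was at 2001 to 3000 bp, with 9 of 942 (0.955%), so the share showed no steady fall with distance. The nearest TSS belonged to the host gene for 2966 calls (74.3%) and for 22 of the 28 IDR intron calls. Calls just outside the limit, 901 to 1000 bp from a TSS, had a median signal of 26.6 with 2 IDR peaks among 258, and those just inside, at 1001 to 1100 bp, 25.9 with 1 among 237. Beside non-coding RNA genes, 49 calls at 151 to 200 bp had a median of 24.8 and 1 IDR peak, and 39 calls at 201 to 250 bp had 27.9 and none.

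Densities of intron calls by chromosome were close to one another. Density ranged from 22.3 per 100 kb on V to 28.4 on I, and it was 31.7 in the middle of 3 equal parts of the chromosomes against 24.7 in the outer parts. Chromosomes III and IV held 10 and 9 of the IDR intron calls, or 3.004 and 3.462 per Mb. I, II and V held 4, 3 and 2, or 1.08, 1.18 and 0.678 per Mb. As shares of intron calls these were 1.10% on III and 1.35% on IV, against 0.380%, 0.424% and 0.304% on I, II and V. IDR peaks of all classes are not given by chromosome here, so whether this is particular to introns was not tested. In replicate 1 chromosome III had 15 of the 35 strong intron calls, or 2.42% of its 621 intron calls (1.47 to 3.95%). In replicate 2 it had 6 of 22, or 0.731% of 821 (0.335 to 1.59%), an interval that includes the share of 0.617% over all chromosomes. Chromosome IV had 10 of 445 in replicate 1 (2.25%, 1.23 to 4.09%). In replicate 2 it had 6 of 579 (1.04%, 0.476 to 2.24%), an interval that also includes 0.617%.

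The 3993 calls fell in 2274 host genes, 22.0% of the 10337 autosomal protein-coding genes with eligible bases. A single call was found in 1509 hosts, 2 in 412, 3 to 5 in 264 and more in 89. Hosts were long, with a median of 5596 bp against 1964 bp over autosomal protein-coding genes. rhgf-3, annotated with a DH domain, had the most, with 21 calls of signal 18.4 to 48.8. hmr-1 and rin-1, a Ras and Rab interactor, each had 15, mpz-1, a scaffold with many PDZ domains, had 14, and kin-1, the catalytic subunit of protein kinase A, had 13. Per 100 kb of eligible intron, rin-1 had 94.3, mpz-1 68.6, kin-1 65.3, rhgf-3 60.9 and hmr-1 36.9. Only hmr-1 among these 5 held an IDR intron call. Calls crowded in places, and 745 (18.7%) had another intron summit within 450 bp, so neighbouring calls can share reads.

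Promoter calls of the hosts were counted for all of them and for the 27 with an IDR intron call. An IDR peak within 1000 bp of a TSS was present for 126 hosts (5.54%), against 573 of 17242 autosomal protein-coding genes (3.32%). Any call near a TSS was present for 69.3% of hosts and 47.5% of all these genes. Hosts are longer and many have several TSSs, and the part of length in this difference was not tested. Of the 27 genes with an IDR intron call, zfp-1, Y111B2A.12 and gei-4 also had a promoter IDR peak, which is 11.1% (3.85 to 28.1%).

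The 3 lists of neuronal membrane proteins and peptides had call densities below the all-gene value. The lists are described by counts, beside 13.2% of autosomal protein-coding genes that were hosts and 26.4 calls per 100 kb over all genes. With an IDR share of 0.701% over all intron calls, lists of this size hold few or no IDR intron calls, and nothing is read from a count of 0 or 1. Ion channels had 50 hosts of 139 genes but 20.8 calls per 100 kb, with inx-13, an innexin, highest at 52.3. Neurotransmitter receptors had 18 of 88 and 11.1 per 100 kb, with acr-16, a nicotinic receptor subunit, at 54.1. Neuropeptide genes and receptors had 25 of 136 and 14.8 per 100 kb, with dmsr-7, a peptide receptor, at 42.8. By contrast in density, synaptic release and transport genes had 24 of 45 and 33.4 per 100 kb, with unc-43 as the IDR call and goa-1, the Go alpha subunit, next at 49.4.

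Transcription factor genes were divided into 3 lists. Transcription factors other than homeobox and nuclear receptor genes had 39 hosts of 124 genes and 90 calls, 34.8 per 100 kb, with 3 IDR intron calls in lag-1, zip-7 and ces-1. Nuclear hormone receptors had 22 of 247 and 21.2 per 100 kb, with nhr-34 in the IDR set and nhr-46 next at 62.9. Homeobox genes had 21 of 74 and 36.4 per 100 kb with no IDR intron call. Their highest was zfh-2, a zinc finger homeobox gene, at 60.7, with a second call at 60.3.

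Genes of adhesion, guidance, muscle and the Wnt pathway had call densities above the all-gene value, and matrix genes one just below it. Axon guidance and adhesion genes had 29 hosts of 56 and 30.7 calls per 100 kb, with hmr-1 in the IDR set and unc-5, a netrin receptor, next at 61.2. Wnt pathway genes had 10 of 29 and 35.3 per 100 kb, led by lit-1, the Nemo-like kinase, at 80.0. Of the 23 calls in 65.1 kb of this list, lit-1 alone held 10 in 12793 bp, so the density rests largely on this gene. Sarcomere and attachment genes had 20 of 59 and 29.9 per 100 kb, with lim-8 at 73.2 and pat-4, the integrin-linked kinase, at 66.4. Basement membrane and matrix genes had 13 of 30 and 24.2 per 100 kb, with phy-2, a collagen prolyl hydroxylase, at 75.1.

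Ribosomal protein and cuticle collagen genes had little eligible intron, while chemoreceptor genes had 359 kb of it and few calls per base. Ribosomal protein genes had 0 hosts of 79, with only 0.187 kb of eligible sequence between them. Cuticle collagens had 6 of 147 and 8 calls in 18.9 kb, or 42.4 per 100 kb, the highest in col-99 at 41.6. Chemoreceptors had 40 of 1331 and 12.8 per 100 kb, with srt-52 in the IDR set and srx-88 next at 72.8. Germline genes had 15 of 91 and 20 calls in 52.6 kb, or 38.1 per 100 kb, with larp-1, an RNA-binding protein, highest at 75.6.

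Strong intron calls stood on GC-rich sequence. Within 50 bp of the summit the median GC content was 48.5% for the IDR intron calls and 33.7% for the other intron calls, against 32.0% over all eligible bases. At 200 to 250 bp from the summit it was 40.7% and 36.3%. Promoter IDR peaks also had a median of 48.5% at the summit, with 35.3% in their flanks. The IDR intron calls ranged from 27.7% for aat-1 to 65.3% for gei-4. RefSeq soft masking, which marks repeats and low-complexity sequence, covered 6 of the 28 IDR summits and 52.2% of the others.

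GC content and intron length moved together with IDR membership. Calls in the highest quartile of GC, from 41.6% upward, held 24 of the 28 IDR intron calls among 1082 calls (2.22%), and the lowest quartile held 0 of 924, which allows a share of up to 0.325%. The median intron was 1976 bp in the highest quartile and 785 bp in the lowest. In introns of at least 2000 bp, GC-rich calls had 20 IDR intron calls of 534 (3.75%, 2.44 to 5.71%) and the rest 1 of 779 (0.128%, 0.0227 to 0.724%). In shorter introns the counts were 3 of 539 (0.557%, 0.189 to 1.62%) and 3 of 2127 (0.141%, 0.0480 to 0.414%). Within GC-rich calls, the intervals of long and short introns did not overlap. These divisions were made after the medians were seen, and GC content can also affect library recovery, whose part was not tested.

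The words AGAGAG and CGTCTC were more frequent at the strong summits than in their flanks. Of all 2080 6-base words, counting a word and its reverse complement as 1, AGAGAG and CGTCTC had the largest excess at summits over flanks, each in 10 of 28 IDR intron calls at the summit and 2 in the flanks. AGAGAG was within 50 bp of 5.55% of the other intron summits and 15.3% of promoter IDR summits, and CGTCTC of 2.82% and 14.3%. AAGAGA was found in 9 of 28 and 7.14% of the others, AGAGAA in 8 and 9.08%, and ACGCAG in 7 and 2.45%. At least 1 of these 5 words was present in 19 of the 28 (67.9%) and in 17.9% of the others. The words were ranked on these same 28 windows, so the counts describe them and are no support, and the 3 words made of A and G overlap one another.

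GAGACG, the reverse complement of CGTCTC, overlaps ACGCAG by 3 letters, and the joined word GAGACGCAG was present in 4 of the 28 IDR intron summits, those of Y111B2A.12, spop-1, mpk-1 and F07C6.4. It was present in 29 of 3965 other intron summits (0.731%), 22 of 426 promoter IDR summits (5.16%) and 7 of 53 intergenic IDR summits (13.2%). It was in 1 of 17 exon IDR summits and in 0 of 100 IDR summits near non-coding RNA genes, where the Wilson interval reaches 3.70%. In the sequences printed above it reads forward in spop-1 and as CTGCGTCTC in Y111B2A.12. This word was assembled after the 6-base words were seen.

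Among the 23 consensus motifs searched on both strands, a few more short ones were frequent. GAGAG, the core of the GAGA element known from Drosophila, was within 50 bp of 13 of 28 IDR summits and 13.9% of the others, but also in the flanks of 9 of the 28. GAGAGA, which alternates like AGAGAG but begins with G, was at 11 of 28 IDR summits and in the flanks of 6. For the other intron calls these shares were 6.13% and 5.37%. GGGCGG, the GC box, was at 6 of 28 summits and 1 flank, against 3.08% of the other summits. The IDR windows have a median GC content of 48.5%, against 33.7%, and the part of composition in the counts of words and motifs was not tested. CANNTG, the general E-box, was at 9 of 28 and 25.8% of the others, and CCAAT at 7 of 28 and 18.8%. TTTTTTTT was at 1 of 28 and 18.7%. TCACAC, a T-box site, was at 6 of 28 and 4.14%. In the sequence of the higher pqn-41 call it stands at the start of a CA repeat, and in that of lag-1 it lies outside the CA repeat. The TGATAA form of the GATA motif was at 0 of the 28, which allows a share of up to 10.7%, and at 7.41% of the others. The B box of tRNA promoters was matched in 1 IDR intron call, that of Y57G11C.22, which lay 316 bp from the nearest annotated non-coding RNA gene, and in 0.378% of the others. A match of letters is a description and not a binding site.

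Sequence shared with other places in the genome was present at a few strong sites. A 31 bp stretch repeated elsewhere in the genome occurred within 50 bp of the summit in 4 of the 28 IDR intron calls (14.3%). The share was similar in the other intron calls, at 13.7%. The 4 are those of cnp-2, mod-5, C36E8.4 and F28F8.7. mod-5 had the widest gap in replicate rank, and C36E8.4 had no replicate 2 summit within 100 bp. The other calls ranked closer in the 2 replicates, with 530 and 380 for cnp-2 and 1027 and 911 for F28F8.7. How the authors treated reads that map to several places is not given in the sources used here, and the part of repeated sequence in these values was not tested.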

How the data were processed

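ChIP-seq of tagged F10B5.3 in 2 replicates of whole L4 worms was analysed from the peak lists of the ce11 build. According to the notes deposited beside the lists, the authors called peaks and background in each replicate and in the pooled alignments against a control alignment, and IDR analysis of these lists gave the thresholded set. The aligner, caller, versions and threshold are not given in the sources used here, and read depth is unknown. The deposited signal value is a score of the authors' caller with no stated scale. The deposited −log10 q-values served only to describe the IDR limit. The deposited summit offset placed each summit. All coordinates lay inside WBcel235, the same assembly as ce11.

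Positions were classified with Ensembl release 115, sequences and masking came from RefSeq, and Python 3.11.15 with numpy 2.4.6 did the counts. The host is the longest protein-coding gene with an intron at the summit, and the intron is that of its longest protein-coding transcript. Pseudogenes were not counted as non-coding RNA genes. A summit matched a replicate if a call of that list had its summit within 100 bp. The class, its lists and words were chosen with earlier results of these data known, and several lists hold only genes named by hand. The text names the 20 highest calls, the other IDR intron calls, 5 calls on each side of the IDR limit, the 5 hosts with most calls, up to 3 calls a list, and the 5 words with the largest difference between summit and flank. The position rule passed 12 of 12 checks on a made-up annotation. No columns were left unmapped. Alternatives moved the distance limits, the matching of calls and the definition of the intron, and used each replicate alone. The result of 1 of the 16 gene lists is not reported here.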

Additional observations from a re-analysis of the deposited data

How the results depend on the processing

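No paired analysis was possible because the 2 replicates form 1 group. Of 78 alternative values, 59 stayed within 1.5 times a count or within the counting interval of the value. With calls more than 2000 bp from TSSs there were 2113 intron calls and 15 in the IDR set, the share in the first intron was 8.56% and the median intron 1169 bp, and with 500 bp the latter were 14.9% and 901 bp. Counting calls outside non-coding RNA genes at any distance gave 53 IDR intron calls (1.23%), so 25 IDR peaks in introns lay within 200 bp of such a gene. The 431 IDR peaks of highest signal held 6 (0.150%). From the list of 1 replicate alone there were 2701 to 3563 intron calls, 22 to 35 among the 862 highest (0.617 to 1.30%), a median percentile of 43.6 to 45.2, 11.2 to 11.5% in the first intron and a median intron of 986.5 to 998.5 bp. A share found in both replicates cannot be had from 1 list. That share was 9.12% with summits within 50 bp, 24.6% within 200 bp, 37.4% with overlapping intervals and 27.4% with overlap of at least 50% of the call. The lowest rank over transcripts put 17.0% in the first intron. Leaving out introns under 450 bp, chosen after seeing the data, gave 14.6% and a median of 1588.5 bp. Depth is unknown, so it cannot be said which weak calls deeper sequencing would keep.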
